A study of Mus musculus with 23 samples.

Results

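The effect of a high-fat diet on gene expression was examined in the liver of mice that lack interleukin-4 (IL-4). The comparison set the 3 libraries titled IL4_fatty against the 4 libraries titled IL4_normal, which are 7 of the 23 liver RNA-seq libraries of the series, and it covered all genes. IL4KO_HFD denotes IL-4 knockout mice fed a diet with 60% of its energy from fat for 15 weeks, and IL4KO_chow denotes IL-4 knockout mice fed normal chow over that period. Wild-type mice on the same diets (WT_HFD and WT_chow, 4 libraries each) were compared only to ask where the knockout differed. All were male C57Bl/6 mice that arrived at 6 to 8 weeks of age, each library came from perfused liver, and all 7 knockout libraries share the missing Il4 gene. The labels do not name the allele and do not say whether knockout and wild-type mice were littermates. They also do not state that each library is a separate mouse, so p-values are judged against the spread between libraries. That spread was estimated over all 23 libraries of the series, which also set which genes were tested. Replicate numbers only name libraries.

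IL-4 is a cytokine made by T helper cells, innate lymphoid cells and granulocytes, and it signals through the IL-4 receptor and STAT6 to push macrophages toward an alternatively activated, tissue-repairing state. A diet rich in fat loads the liver with fatty acids, which activate the nuclear receptor PPARα, the master switch of fatty acid oxidation, while surplus lipid is stored in droplets coated by perilipin and CIDE proteins. Fatty liver can progress to inflammation and scarring, when stellate cells deposit collagen and monocyte-derived macrophages enter the tissue.

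The IL4KO_HFD libraries held 8935353, 8003903 and 7788330 counts and the IL4KO_chow libraries 11179746, 11146007, 7114459 and 7542455 counts. Il4 itself (chr11:53612460-53618665 in GRCm38) had 1, 0 and 1 counts in IL4KO_HFD livers and 0 counts in each of the 4 IL4KO_chow livers, too few to check the genotype. All 15 hepatocyte markers were tested, with a summed level of 127900 to 175900 CPM (counts scaled to library size) in IL4KO_HFD and 141900 to 165500 CPM in IL4KO_chow, so the tissue label fits its defining genes. Of 6 adipocyte markers, Adipoq and Plin1 were at 0 in all 7 libraries. The list summed to 14.06, 2.235 and 41.7 CPM in IL4KO_HFD replicates 1, 2 and 3, against 1.896 to 7.579 CPM in IL4KO_chow. Only 1 member was tested, and it was not called (log2 fold change 2.08). The source of this signal was not tested.

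The 3 IL4KO_HFD livers were far from alike, which bears on every result here. On the first principal component of the 7 libraries (49.1% of the variance of log2 CPM) replicate 2 lay at 70.94, replicate 1 at 22.64 and replicate 3 at -8.63, whereas the 4 chow livers lay between -25.27 and -16.29. Replicate 3 was as close to the chow livers (Pearson r over tested genes of 0.9785 to 0.9801) as to replicate 1 (0.9787), and it was further from replicate 2 (0.9504). Results are therefore given with and without replicates 2 and 3. Markers of monocyte-derived and lipid-associated macrophages summed to 120.5, 403.5 and 106.3 CPM in the IL4KO_HFD livers and to 117.0 to 130.0 CPM on chow, so only replicate 2 stood above chow. In whole tissue, more cells of a type and more RNA per cell cannot be told apart.

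Of 12891 tested genes, 1170 (9.08%) differed between IL4KO_HFD and IL4KO_chow at a false discovery rate (FDR) below 0.05 by the quasi-likelihood test of edgeR. The test was two-sided, and every FDR given is a Benjamini-Hochberg adjusted p from that tool over the 12891 genes. The diet raised 662 of them (5.14% of tested genes) and lowered 508 (3.94%). Changes of at least 2-fold made up 243 of the higher (1.89% of tested genes) and 74 of the lower genes (0.574%). Replicate 2 was the most extreme of the IL4KO_HFD livers for 76.1% of the higher and 73.8% of the lower genes, and replicate 3 lay within or beyond the chow range for 18.3% of the higher and 4.53% of the lower genes. Without replicate 2 the number of called genes was 236 (1.83%), with 1.0% of tested genes higher and 0.83% lower. Without replicate 3 it was 2045 (15.9%), with 8.5% higher and 7.36% lower. Leaving out chow replicate 1 gave 712 (5.52%) and leaving out chow replicate 3 gave 735 (5.7%). The 1170 calls rest on a spread estimated from all 23 libraries of the series. A fit of the 7 knockout libraries alone, over the same 12891 genes, takes the spread from those livers only. It called 499 genes, of which 430 were among the 1170. A core of 201 genes (1.56%), 111 higher (0.861%) and 90 lower (0.698%), was called in the full fit and in each of the 7 fits that left out a knockout library.

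**Figure D1:**
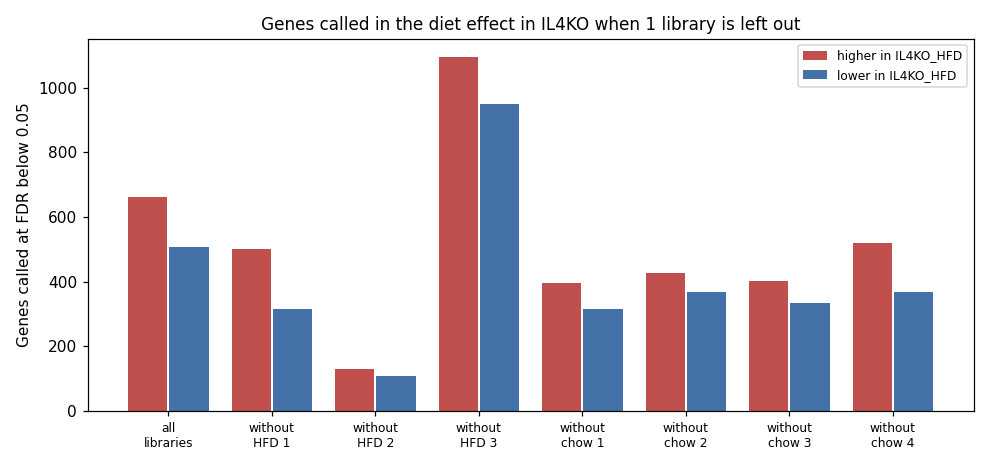
Number of genes called at FDR below 0.05 (y axis) in the diet effect in IL4KO with all libraries and with each knockout library left out (x axis), higher (red) and lower (blue) in IL4KO_HFD. The count is 236 without HFD replicate 2 and 2045 without HFD replicate 3, against 1170 with all libraries.

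The genes with the smallest worst-case FDR across those 7 fits did not overlap with chow in any IL4KO_HFD liver, though the size of the change differed between livers for some. Pgm3, an enzyme that makes UDP-N-acetylglucosamine for protein glycosylation, had 51.3, 54.3 and 50.7 CPM in the IL4KO_HFD livers, against 18.7, 19.4, 25.4 and 24 CPM in the IL4KO_chow livers (log2 fold change 1.26, SE 0.11, FDR 4.88e-07). The groups were far apart, and the 3 high-fat livers lay within a few CPM of each other. Hexa, the alpha subunit of lysosomal beta-hexosaminidase, had 104, 114 and 77.9 CPM in IL4KO_HFD, against 43.7, 45.8, 41.8 and 51.8 CPM in IL4KO_chow (log2 fold change 1.11, SE 0.11, FDR 5.26e-06). Dio1, which converts thyroxine into active thyroid hormone, averaged 197 ± 23 CPM in IL4KO_HFD and 75.4 ± 18.9 CPM in IL4KO_chow (SD, n = 3 and 4; log2 fold change 1.39, SE 0.16, FDR 5.5e-05). Others that rose in all 7 fits were Nceh1, a cholesteryl ester hydrolase (log2 fold change 1.09), the lysosomal sulfatase gene Arsg (0.99), the phospholipase B-like gene Plbd1 (0.61), Rassf4 (1.09), Spp2 (0.79) and Tceal8 (1.56).

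Other genes fell in all 7 fits. Srgap3, which encodes a GTPase-activating protein, was nearly lost, with 0.114, 0.559 and 0.135 CPM in the IL4KO_HFD livers, against 5.84, 5.42, 5.15 and 4.32 CPM in the IL4KO_chow livers (log2 fold change -4.19, SE 0.41, FDR 4.06e-06). Adra1b, the alpha-1B adrenergic receptor through which catecholamines mobilise liver glycogen, had 44.4, 34.8 and 46.3 CPM in IL4KO_HFD, against 72.1, 71.9, 69.5 and 73.5 CPM in IL4KO_chow (log2 fold change -0.78, SE 0.091, FDR 5.45e-05). Slc30a10, a manganese exporter, had 31.7, 22.5 and 30.5 CPM in IL4KO_HFD, against 64.7, 69.6, 72.5 and 79.7 CPM in IL4KO_chow (log2 fold change -1.34, SE 0.17, FDR 0.00015). In each of these the lowest chow liver was above the highest high-fat liver. Slco2a1, a prostaglandin transporter (log2 fold change -1.499), Celsr1, a planar cell polarity cadherin (-1.29), the kinase gene Mast3 (-0.89) and Nat8, an N-acetyltransferase gene (-2.46), also fell in all 7 fits. Cyp26a1, which degrades retinoic acid, had 3.09, 2.79 and 1.08 CPM in IL4KO_HFD, against 16.8, 21.2, 12.2 and 12 CPM in IL4KO_chow (log2 fold change -2.73, SE 0.45, FDR 0.00137).

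**Figure D2:**
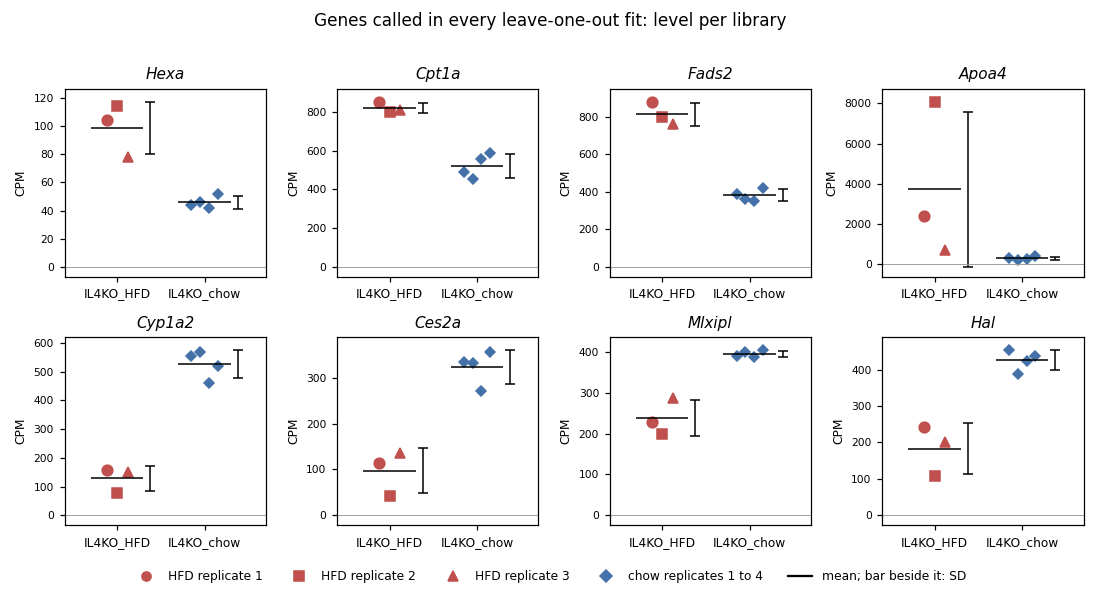
Level in CPM (y axis, linear) of 8 genes called in all 7 leave-one-out fits, in the 3 IL4KO_HFD livers (red, one symbol per replicate) and the 4 IL4KO_chow livers (blue), with the mean as a line and the SD as a bar. For each gene the groups do not overlap; Hexa, Cpt1a, Fads2 and Apoa4 are higher and Cyp1a2, Ces2a, Mlxipl and Hal lower in IL4KO_HFD.

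Of 43 tested genes of fatty acid oxidation and PPARα targets, 16 were higher in IL4KO_HFD (37.2%, against 5.14% of all tested genes) and 0 lower. Their median log2 fold change was 0.49, against -0.0003 over all tested genes. Without replicate 2, 9 were higher, without replicate 3, 17, and in the fit of the knockout libraries alone, 19. Relative to the chow mean, the median member was higher by 0.57, 0.49 and 0.37 (log2) in replicates 1, 2 and 3, so it lay above chow in each high-fat liver. Ppara itself, the receptor, had 513, 417 and 520.3 CPM in IL4KO_HFD, against 322, 271, 303 and 423 CPM in IL4KO_chow (log2 fold change 0.55, SE 0.17, FDR 0.0436), a call that rests on most of the libraries (FDR up to 0.121 without HFD replicate 1, 2 or 3 or chow replicate 1, 2 or 3).

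Entry of fatty acids into mitochondria depends on Cpt1a, which had 854, 801 and 810.1 CPM in the IL4KO_HFD livers, against 491, 454, 557 and 587 CPM in the IL4KO_chow livers (log2 fold change 0.65, SE 0.12, FDR 0.00225). Within the mitochondrial spiral, 6 of 14 genes rose, among them Acadl (log2 fold change 0.49), Hadhb (0.55) and Hadh, which had 542, 564 and 451 CPM in IL4KO_HFD, against 322, 313, 312 and 365 CPM in IL4KO_chow (log2 fold change 0.66, SE 0.12, FDR 0.00170). Each of these was called in all 7 leave-one-out fits, as was Bdh1, which interconverts the ketone bodies (log2 fold change 0.74, SE 0.12, FDR 0.000854).

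Peroxisomal and signalling targets differed more in size. Abcd2, a peroxisomal importer of very long-chain fatty acids, had 37.8, 45.9 and 29.6 CPM in the IL4KO_HFD livers, against 6.21, 9.57, 8.87 and 14.6 CPM in the IL4KO_chow livers (log2 fold change 1.97, SE 0.33, FDR 0.00178). Vnn1, a pantetheinase known as a PPARα target, had 206, 187 and 193 CPM in IL4KO_HFD, against 45.3, 53.2, 50.5 and 79.8 CPM in IL4KO_chow (log2 fold change 1.78, SE 0.32, FDR 0.00278). Fgf21, a hormone secreted by the fasting or stressed liver, had 8.57, 11.4 and 5.94 CPM in IL4KO_HFD, against 1.11, 0.813, 0.715 and 1.25 CPM in IL4KO_chow (log2 fold change 3.15, SE 0.56, FDR 0.00221). All 3 were separated from chow in every high-fat liver. The omega-hydroxylases gave no call, 0 of 4. Cyp4a14, a member of that group, had 2205, 1398 and 855 CPM in IL4KO_HFD, against 276, 204, 224 and 492 CPM in IL4KO_chow (FDR 0.126). Pdk4, which shuts off glucose oxidation when fat is burnt, had 19.3, 46 and 7.42 CPM in IL4KO_HFD, against 5.57, 5.60, 4.86 and 5.01 CPM in IL4KO_chow (log2 fold change 2.21, SE 0.53, FDR 0.0160; FDR 0.222 without HFD replicate 2).

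Genes of lipid storage rose as well, but in a graded manner. Of 28 tested lipid droplet genes and PPARγ targets, 11 were higher in IL4KO_HFD (39.3%, against 5.14% of all tested genes) and 0 lower (median log2 fold change 0.57). Without replicate 2 the count was 2, and without replicate 3 it was 13 higher and 1 lower, while the knockout libraries alone gave 11 higher. Cidec, which fuses lipid droplets, had 144, 274 and 72.7 CPM in the IL4KO_HFD livers, against 10.9, 10.7, 11.9 and 21.3 CPM in the IL4KO_chow livers (log2 fold change 3.60, SE 0.82, FDR 0.0122; FDR 0.0866 without HFD replicate 2). Its relative Cidea had 36.6, 79.7 and 20.5 CPM in IL4KO_HFD, against 1.58, 0.723, 2.15 and 3.62 CPM in IL4KO_chow (log2 fold change 4.61, SE 0.99, FDR 0.00855; FDR 0.0713 without HFD replicate 2). For both, replicate 2 was highest and replicate 3 lowest of the high-fat livers, and even replicate 3 was above every chow liver.

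The fatty acid transporter Cd36 had 298, 479.7 and 131 CPM in IL4KO_HFD, against 74.1, 65.9, 72.9 and 95.8 CPM in IL4KO_chow (log2 fold change 1.98, SE 0.42, FDR 0.00824; FDR 0.0964 without HFD replicate 2). Fatty acid-binding protein genes Fabp2 (log2 fold change 1.13, SE 0.24, FDR 0.00704) and Fabp4 (log2 fold change 1.85, SE 0.35, FDR 0.00394; FDR 0.0551 without HFD replicate 2) rose, Fabp2 in all 7 leave-one-out fits. Of the droplet coats, Plin3 passed the test in all 7 fits, with 80.1, 101 and 63.8 CPM in IL4KO_HFD, against 52.5, 49.2, 46.5 and 52.6 CPM in IL4KO_chow (log2 fold change 0.70, SE 0.12, FDR 0.00132). Plin2, the main hepatocyte perilipin, had 767, 938 and 559 CPM in IL4KO_HFD, against 434, 340.3, 520.1 and 583 CPM in IL4KO_chow (FDR 0.0926) and did not pass with all libraries (FDR 0.0374 without replicate 3). The lipases Pnpla2, which opens triglyceride breakdown (log2 fold change 0.57; FDR 0.0615 without HFD replicate 2), and Mgll, which ends it (log2 fold change 0.65; FDR up to 0.140 without HFD replicate 1 or 2 or chow replicate 1 or 2), rose. Pparg did not pass (log2 fold change 0.57, FDR 0.160).

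Of 28 tested genes of lipogenesis, desaturation and elongation, 3 were higher (10.7%) and 5 lower (17.9%) in IL4KO_HFD (median log2 fold change -0.16). Of all tested genes, 5.14% were higher and 3.94% lower. The list gave 3 higher and 2 lower without replicate 2, and 4 higher and 5 lower without replicate 3. The higher genes were 2 desaturases and 1 elongase. The lower genes were 2 regulators, 2 genes of acetyl-CoA and NADPH supply and 1 desaturase. Of 3 fatty acid synthesis genes, 0 were called. The regulator gene Mlxipl, which encodes the glucose-sensing factor ChREBP, had 228, 199 and 288 CPM in the IL4KO_HFD livers, against 390.4, 400.1, 387 and 404 CPM in the IL4KO_chow livers (log2 fold change -0.73, SE 0.11, FDR 0.00069). Acly, which makes cytosolic acetyl-CoA from citrate, had 291, 317 and 277 CPM in IL4KO_HFD, against 603, 639, 396 and 696 CPM in IL4KO_chow (log2 fold change -0.98, SE 0.18, FDR 0.00264). Both fell in all 7 leave-one-out fits, and Acss2, the acetate route to acetyl-CoA, fell too (log2 fold change -1.09, SE 0.29, FDR 0.0239; FDR up to 0.187 without HFD replicate 1 or 2 or chow replicate 2 or 4).

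Fatty acid synthase did not pass. Its gene Fasn had 714, 797 and 426 CPM in IL4KO_HFD, against 868, 1195, 893 and 1287 CPM in IL4KO_chow (log2 fold change -0.72, FDR 0.0947), and Srebf1, the insulin-responsive regulator of the pathway, had a log2 fold change of -0.72 (FDR 0.0834). The desaturases of polyunsaturated fatty acids rose. Fads2 had 880.1, 799 and 762 CPM in IL4KO_HFD, against 390.4, 364, 352 and 421 CPM in IL4KO_chow (log2 fold change 1.09, SE 0.16, FDR 0.000346), and Fads1 had 1082, 898 and 953 CPM in IL4KO_HFD, against 619.9, 602, 619 and 669 CPM in IL4KO_chow (log2 fold change 0.64, SE 0.11, FDR 0.000996). The 2 genes, neighbours on chromosome 19, rose in all 7 fits. Scd1, the stearoyl-CoA desaturase, did not pass (log2 fold change -0.59, FDR 0.509).

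Among 33 tested genes of triglyceride synthesis and lipoproteins, 5 were higher (15.2%) and 1 lower (3.03%) in IL4KO_HFD, against 5.14% higher and 3.94% lower of all tested genes. The counts were 2 and 0 without replicate 2. Without replicate 3 they were 5 and 3, against 8.5% higher and 7.36% lower of all tested genes. Apoa4, an apolipoprotein that the fat-laden liver secretes with triglyceride-rich particles, had 2388, 8079 and 740.2 CPM in the IL4KO_HFD livers, against 305, 222, 275 and 406 CPM in the IL4KO_chow livers (log2 fold change 3.63, SE 0.57, FDR 0.00118). It was called in all 7 fits although the high-fat livers ranged widely among themselves. Apoc2, the activator of lipoprotein lipase, had 446, 599 and 300.4 CPM in IL4KO_HFD, against 227, 192, 211 and 246 CPM in IL4KO_chow (log2 fold change 1.03, SE 0.16, FDR 0.00071). Vldlr, a receptor that takes up triglyceride-rich particles, rose (log2 fold change 2.28, FDR 0.0118; FDR 0.162 without HFD replicate 2), and the hepatic lipase gene Lipc fell (log2 fold change -0.56, FDR 0.00734; FDR 0.0763 without HFD replicate 2). Apob (FDR 0.879) and Mttp (FDR 0.834), which build very low-density lipoprotein, and Dgat2 (FDR 0.659), which makes triglyceride, did not pass.

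Cholesterol synthesis gave 0 higher and 1 lower of 22 tested genes, a lower share of 4.55% close to the 3.94% of all tested genes. Without replicate 3 there were 4 lower, in a fit that called 7.36% of all tested genes lower. Without replicate 2 there were 0. Of 26 bile acid genes, 2 rose and 2 fell, 7.69% in each direction, against 5.14% higher and 3.94% lower of all tested genes. The counts were 1 higher and 2 lower without replicate 2, and 2 higher and 4 lower without replicate 3. Abcb11, the pump that exports bile salts into the canaliculus, had 509, 289 and 527 CPM in the IL4KO_HFD livers, against 806, 746, 703 and 794 CPM in the IL4KO_chow livers (log2 fold change -0.79, SE 0.14, FDR 0.00178), and Fgfr4, the receptor through which the gut restrains bile acid synthesis, fell (log2 fold change -0.63, SE 0.12, FDR 0.00275). Both fell in all 7 fits. Abcb4, the phospholipid floppase of bile (log2 fold change 0.58, SE 0.13, FDR 0.00780; FDR 0.0662 without HFD replicate 2), and the oxysterol hydroxylase gene Cyp39a1 (log2 fold change 1.09, SE 0.25, FDR 0.0119; FDR 0.0777 without HFD replicate 1) rose. Cyp7a1, the rate-limiting enzyme of bile acid synthesis, had 23.8, 21 and 50.9 CPM in IL4KO_HFD, against 63.5, 80.7, 105 and 35.7 CPM in IL4KO_chow (FDR 0.227) and did not pass.

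Cytochrome P450 genes of xenobiotic metabolism gave 3 higher (7.69%) and 7 lower (17.9%) of 39 tested, against 5.14% higher and 3.94% lower of all tested genes. The counts were 1 and 5 without replicate 2, and 4 and 8 without replicate 3. Cyp1a2, the caffeine-oxidising enzyme of pericentral hepatocytes, had 157, 76.6 and 149.8 CPM in the IL4KO_HFD livers, against 555, 569, 459.7 and 519 CPM in the IL4KO_chow livers (log2 fold change -2.04, SE 0.25, FDR 0.000108). Cyp2c29 had 527, 210.1 and 651 CPM in IL4KO_HFD, against 2014, 1832, 1847 and 1755 CPM in IL4KO_chow (log2 fold change -2.01, SE 0.26, FDR 0.00015). Both were called in all 7 fits, together with Cyp2c55 (log2 fold change -2.19, SE 0.42, FDR 0.00329) and Cyp2c70 (log2 fold change -1.09, SE 0.20, FDR 0.00278). The Cyp2c genes are close paralogs, and how reads shared between them were assigned is not given in the sources used here, so their single values are uncertain. Cyp3a11 had 1490.0, 1817 and 508 CPM in IL4KO_HFD, against 3010.0, 3438, 2003 and 3528 CPM in IL4KO_chow and fell just short of the threshold (FDR 0.0532). Cyp2e1, an abundant pericentral enzyme, did not pass (log2 fold change 0.31, FDR 0.343).

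Of 40 tested conjugation genes, 3 rose (7.5%) and 5 fell (12.5%), against 5.14% higher and 3.94% lower of all tested genes. The counts were 0 and 2 without replicate 2, and 4 and 5 without replicate 3. The glutathione transferases Gstp1, with 218, 244 and 192 CPM in IL4KO_HFD, against 608, 558, 437 and 443 CPM in IL4KO_chow (log2 fold change -1.23, SE 0.27, FDR 0.00728), and Gstm6 (log2 fold change -0.67, SE 0.12, FDR 0.00207) fell in all 7 fits. Ces2a, an intestinal and hepatic carboxylesterase gene, had 113, 42.2 and 136 CPM in the IL4KO_HFD livers, against 335, 332, 272 and 357 CPM in the IL4KO_chow livers (log2 fold change -1.74, SE 0.27, FDR 0.000854). NRF2 targets of the antioxidant response gave 1 higher of 19 (5.26%, against 5.14% of all tested genes), namely Srxn1 (sulfiredoxin), with 68.6, 119 and 43.3 CPM in IL4KO_HFD, against 47.5, 41.7, 46.3 and 44.9 CPM in IL4KO_chow (log2 fold change 0.78, SE 0.21, FDR 0.0254; FDR up to 0.327 without HFD replicate 2 or chow replicate 1, 2, 3 or 4). Its level was high in replicates 1 and 2 alone. Without replicate 3, 6 of the 19 rose, against 8.5% of all tested genes, and without replicate 2, 0.

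Female-biased genes of mouse liver rose, and a few male-biased genes fell, with replicates 1 and 2 further from chow than replicate 3. Sexually dimorphic liver genes answer to the pulsatile growth hormone of males or the steady growth hormone of females, and all these mice were male. Of 9 tested female-biased genes, 6 were higher (66.7%, against 5.14% of all tested genes) and 0 lower (median log2 fold change 3.83). Of these 9, 2 were higher without replicate 2, 8 without replicate 3 and 1 in the knockout libraries alone. Cyp2b9 had 162, 293 and 4.45 CPM in the IL4KO_HFD livers, against 2.32, 1.08, 0.858 and 6.13 CPM in the IL4KO_chow livers (log2 fold change 5.95, SE 1.32, FDR 0.0103; FDR 0.0697 without HFD replicate 2). Replicate 3 lay within the chow range. Cyp17a1, a steroid hydroxylase gene, had 103, 95 and 34.5 CPM in IL4KO_HFD, against 16.7, 15.1, 17.2 and 20.3 CPM in IL4KO_chow (log2 fold change 2.18, SE 0.40, FDR 0.00330), and the transporter gene Slc22a27 had 14.2, 28.3 and 2.29 CPM in IL4KO_HFD, against 0.464, 0.542, 0.858 and 0.418 CPM in IL4KO_chow (log2 fold change 4.74, SE 0.87, FDR 0.00338). These 2 were called in all 7 fits.

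Male-biased genes gave 0 higher and 2 lower of 20 (10.0% lower, against 3.94% of all tested genes), with a median log2 fold change of -1.21. Without replicate 3, 10 were lower, against 7.36% of all tested genes. Hsd3b5, a strongly male-biased steroid enzyme gene, had 1.14, 0 and 76 CPM in IL4KO_HFD, against 116, 135, 119 and 98.9 CPM in IL4KO_chow (log2 fold change -2.23, FDR 0.240), so it was nearly absent from replicates 1 and 2 and present in replicate 3 (FDR 0.00654 without replicate 3). The summed level of the male-biased list was 6297, 3873 and 15330 CPM in the IL4KO_HFD livers, against 16950 to 20140 CPM in IL4KO_chow. The growth hormone receptor gene Ghr (FDR 0.368) and its downstream genes Igf1 (FDR 0.654) and Socs2 (FDR 0.935) did not pass. Stat5a was the only 1 of 13 genes of that axis to be called (7.69% higher, against 5.14% of all tested genes). Its log2 fold change was 0.54 (SE 0.17, FDR 0.0479, and FDR up to 0.228 without HFD replicate 1 or 2 or chow replicate 1, 2 or 3). Mup, Cyp2b and Slc22a genes have near-identical relatives, so their single values are uncertain.

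Of 50 tested collagen and matrix genes, 23 were higher (46.0%) and 2 lower (4.0%) in IL4KO_HFD, against 5.14% higher and 3.94% lower of all tested genes. Their median log2 fold change was 0.98. Without replicate 2 the count was 1 higher and 2 lower, and without replicate 3 it was 31 higher and 3 lower. In the knockout libraries alone 4 were called, 2 of them higher. Col1a1, the main chain of scar collagen, had 18.7, 86 and 2.97 CPM in the IL4KO_HFD livers, against 3.34, 4.70, 3.43 and 3.06 CPM in the IL4KO_chow livers (log2 fold change 3.29, SE 0.78, FDR 0.0144; FDR 0.288 without HFD replicate 2). Col3a1 had 63.9, 205 and 23.8 CPM in IL4KO_HFD, against 13.1, 22.9, 16.7 and 13.8 CPM in IL4KO_chow (log2 fold change 2.55, SE 0.55, FDR 0.00860; FDR 0.150 without HFD replicate 2). For Col1a1 replicate 3 was below every chow liver, and for Col3a1 it was just above them. The median matrix gene stood above the chow mean by 1.43 (log2) in replicate 2, by 0.57 in replicate 1 and by 0.06 in replicate 3.

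Postn, encoding periostin, a matrix protein of healing tissue, was the 1 matrix gene that rose in all 7 fits, with 22.9, 53.5 and 11.7 CPM in IL4KO_HFD, against 6.68, 9.21, 7.29 and 6.96 CPM in IL4KO_chow (log2 fold change 1.96, SE 0.36, FDR 0.00289). Smad7, an inhibitor of TGF-β signalling, fell in all 7 fits, with 8.57, 9.72 and 7.69 CPM in IL4KO_HFD, against 15.7, 16.2, 14.9 and 20.2 CPM in IL4KO_chow (log2 fold change -0.94, SE 0.15, FDR 0.00071), and so did Col5a3 (log2 fold change -0.47, SE 0.11, FDR 0.0103). Tgfb1 did not pass (FDR 0.241). Stellate cell and fibroblast markers gave 1 higher of 12 (8.33%, against 5.14% of all tested genes). They summed to 178.2, 275.7 and 156.3 CPM in the IL4KO_HFD livers, against 128.0 to 169.0 CPM in IL4KO_chow. Acta2, the marker of activated stellate cells, had 1.60, 4.92 and 0.540 CPM in IL4KO_HFD, against 1.67, 0.993, 0.858 and 0.836 CPM in IL4KO_chow (FDR 0.306).

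Macrophage markers, like the matrix genes, stood highest in replicate 2. The 2 sets differed in replicate 1, where the median matrix gene lay 0.57 (log2) above the chow mean. There the macrophage markers summed to 120.5 CPM, within the chow range of 117.0 to 130.0 CPM. Of 17 markers of monocyte-derived and lipid-associated macrophages, 5 were higher (29.4%, against 5.14% of all tested genes) and 0 lower. Without replicate 2 the count was 0, and without replicate 3 it was 11. In the knockout libraries alone 1 was called. Gpnmb, which lipid-laden macrophages express, had 1.14, 17.9 and 0.270 CPM in the IL4KO_HFD livers, against 0.0927, 0.181, 0.286 and 0 CPM in the IL4KO_chow livers (log2 fold change 5.47, SE 1.37, FDR 0.0178; FDR up to 0.496 without HFD replicate 2 or chow replicate 1). Trem2, a lipid-sensing receptor of the same cells, had 1.26, 5.48 and 1.21 CPM in IL4KO_HFD, against 0.185, 0.723, 0.429 and 0.557 CPM in IL4KO_chow (log2 fold change 2.49, SE 0.59, FDR 0.0111; FDR 0.275 without HFD replicate 2). Trem2 was above all chow livers in each high-fat liver, but it was above 2 CPM in replicate 2 only. The general macrophage gene Cd68 had 8.80, 20.9 and 7.29 CPM in IL4KO_HFD, against 8.16, 7.59, 7.15 and 8.64 CPM in IL4KO_chow (FDR 0.209). Kupffer cell markers gave 0 calls of 10, and their sum was 240.0, 464.2 and 317.0 CPM in the IL4KO_HFD livers, against 272.4 to 364.2 CPM in IL4KO_chow. The part of these cell types in the matrix and droplet results was not tested. Markers of neutrophils (13 tested), T and NK cells (12), B cells (3) and cholangiocytes (12) gave 0 calls. Neutrophil markers summed to 1.714 to 7.153 CPM in IL4KO_HFD and 1.95 to 20.59 CPM in IL4KO_chow. T and NK cell markers summed to 2.024 to 5.812 and 3.761 to 9.031 CPM, and B cell markers to 1.372 to 3.13 and 2.574 to 5.293 CPM, in that order. At such low levels, 0 calls does not show that these 3 cell types were unchanged.

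**Figure D3:**
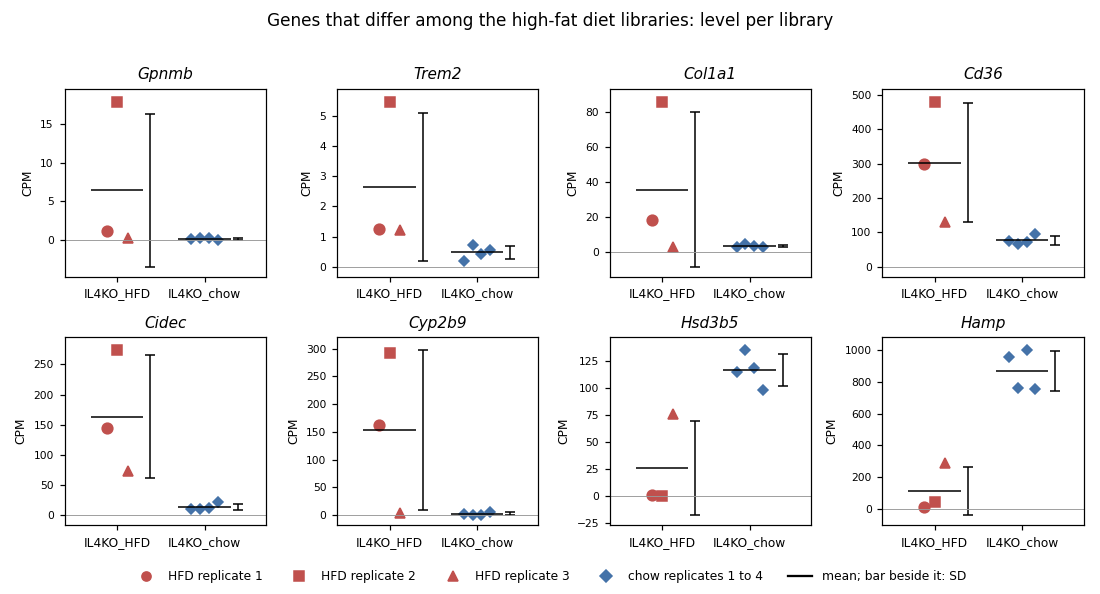
Level in CPM (y axis, linear) of 8 genes that vary among the high-fat livers, in the 3 IL4KO_HFD livers (red, one symbol per replicate) and the 4 IL4KO_chow livers (blue), with the mean as a line and the SD as a bar. Replicate 2 is highest for Gpnmb, Trem2, Col1a1, Cd36, Cidec and Cyp2b9, while Hsd3b5 and Hamp, which did not pass the test, are lowest in replicates 1 and 2.

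Sinusoidal endothelial markers gave 1 higher (5.56%) and 3 lower (16.7%) of 18, against 5.14% higher and 3.94% lower of all tested genes. The higher share was thus close to that of all genes. The counts were 0 and 1 without replicate 2. Without replicate 3 they were 3 and 3, against 8.5% higher and 7.36% lower of all tested genes. Dnase1l3, a secreted nuclease gene of these cells, fell in all 7 fits, with 47.1, 41 and 48.4 CPM in the IL4KO_HFD livers, against 69.3, 69.2, 66.8 and 65.5 CPM in the IL4KO_chow livers (log2 fold change -0.57, SE 0.076, FDR 0.00015). Lyve1, the hyaluronan receptor gene, rose, with 58, 98.9 and 40.1 CPM in IL4KO_HFD, against 23, 37.1, 27 and 28 CPM in IL4KO_chow (log2 fold change 1.19, SE 0.27, FDR 0.0103; FDR 0.138 without HFD replicate 2). Kdr, a receptor for vascular endothelial growth factor (log2 fold change -0.37, SE 0.087, FDR 0.0102; FDR 0.105 without HFD replicate 2), and Clec4g (log2 fold change -0.45, SE 0.13, FDR 0.0303; FDR up to 0.248 without HFD replicate 1 or 2 or chow replicate 1, 2 or 3) fell. The summed level of the list was 653.7 to 832.7 CPM in IL4KO_HFD and 691.6 to 750.0 CPM in IL4KO_chow.

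Of 44 tested genes of the urea cycle and amino acid breakdown, 8 fell (18.2%) and 2 rose (4.55%), against 3.94% lower and 5.14% higher of all tested genes. The counts were 1 lower and 1 higher without replicate 2, and 11 lower and 2 higher without replicate 3. Hal, which opens histidine breakdown, had 242, 107 and 201 CPM in the IL4KO_HFD livers, against 453, 388, 424 and 436 CPM in the IL4KO_chow livers (log2 fold change -1.22, SE 0.20, FDR 0.000953) and fell in all 7 fits. Cps1, the entry enzyme of the urea cycle, had 3674, 1880.0 and 4285 CPM in IL4KO_HFD, against 6136, 5671, 5471 and 5769 CPM in IL4KO_chow (log2 fold change -0.81, SE 0.21, FDR 0.0166; FDR 0.127 without HFD replicate 2). The transsulfuration genes Cth (log2 fold change -1.16, SE 0.25, FDR 0.00783) and Cbs (log2 fold change -0.52, SE 0.11, FDR 0.00606) and the methyl-group sink Gnmt (log2 fold change -0.77, SE 0.19, FDR 0.0160) fell, and none of these 3 held without replicate 2 (FDR 0.0697 for Cth, 0.0672 for Cbs and 0.138 for Gnmt). Bckdhb, a subunit of the branched-chain ketoacid dehydrogenase, rose in all 7 fits, with 92.3, 90.1 and 92.3 CPM in IL4KO_HFD, against 65.1, 67.5, 67.5 and 72.3 CPM in IL4KO_chow (log2 fold change 0.43, SE 0.068, FDR 0.00071).

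Hepatocytes differ along the lobule, from the portal vein to the central vein. Periportal genes gave 1 higher (8.33%) and 4 lower (33.3%) of 12, with a median log2 fold change of -0.45. Pericentral genes gave 2 higher (11.1%) and 1 lower (5.56%) of 18, with a median of -0.04. Of all tested genes, 5.14% were higher and 3.94% lower. In each of the 2 lists the counts without replicate 2 were 0 and 1. Cyp2f2 (log2 fold change -0.75, SE 0.19, FDR 0.0163) and Gls2, the liver glutaminase (log2 fold change -0.77, SE 0.17, FDR 0.00836), fell on the portal side, and neither held without replicate 2 (FDR 0.0964 for Cyp2f2 and 0.0971 for Gls2). Glul, glutamine synthetase of the cells around the central vein, rose, with 1313, 1137 and 1062 CPM in IL4KO_HFD, against 782, 905, 876 and 817 CPM in IL4KO_chow (log2 fold change 0.47, SE 0.13, FDR 0.0260; FDR up to 0.109 without HFD replicate 1 or 2 or chow replicate 1 or 4). Hsd17b13, a lipid droplet protein in the periportal list, rose (log2 fold change 0.89, SE 0.18, FDR 0.00377; FDR 0.0543 without HFD replicate 2). The difference between the lists was not tested.

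Iron handling gave 0 higher and 4 lower (26.7%) of 15, against 5.14% higher and 3.94% lower of all tested genes. The counts were 0 and 2 without replicate 2, and 1 and 4 without replicate 3. Id1, a target of BMP signalling, had 2.51, 4.47 and 3.24 CPM in the IL4KO_HFD livers, against 8.35, 7.13, 9.29 and 10.6 CPM in the IL4KO_chow livers (log2 fold change -1.36, SE 0.30, FDR 0.00689) and fell in all 7 fits. Bmp6, the ligand that reports iron stores to hepatocytes, had 2.86, 2.79 and 2.70 CPM in IL4KO_HFD, against 7.23, 5.60, 4.29 and 3.90 CPM in IL4KO_chow (log2 fold change -0.94, SE 0.29, FDR 0.0428; FDR up to 0.169 without HFD replicate 1, 2 or 3 or chow replicate 1 or 2). Hamp, which encodes the iron hormone hepcidin, had 11.5, 43.1 and 290.3 CPM in IL4KO_HFD, against 952, 759.5, 997 and 757 CPM in IL4KO_chow (log2 fold change -2.92, SE 1.004, FDR 0.0780). All 3 high-fat livers were below all chow livers, yet Hamp did not pass with all libraries (FDR 0.00774 without replicate 3). Alas2, the erythroid haem synthesis gene, fell in all 7 fits, with 89.7, 68.6 and 90.5 CPM in IL4KO_HFD, against 186, 165, 135 and 168 CPM in IL4KO_chow (log2 fold change -0.98, SE 0.16, FDR 0.00127), the 1 call among 7 tested erythroid markers. Those markers summed to 230.6 to 525.4 CPM in IL4KO_HFD and 254.2 to 620.8 CPM in IL4KO_chow.

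Secreted liver hormones gave 5 higher (25.0%, against 5.14% of all tested genes) and 0 lower of 20. The higher genes were Fgf21, Sepp1, the selenium carrier (log2 fold change 0.46, SE 0.10, FDR 0.00548), Inhbe, an activin subunit (log2 fold change 0.60, SE 0.15, FDR 0.0163; FDR up to 0.130 without HFD replicate 2 or chow replicate 1 or 2), Gdf2, a BMP family ligand (log2 fold change 0.57, SE 0.13, FDR 0.00800; FDR 0.130 without HFD replicate 2), and Lect2 (log2 fold change 0.52, SE 0.15, FDR 0.0281; FDR up to 0.12 without HFD replicate 1 or 2 or chow replicate 1, 3 or 4). Fgf21 and Sepp1 held in all 7 fits. Of 37 complement and coagulation genes, 1 rose (2.7%) and 4 fell (10.8%), against 5.14% higher and 3.94% lower of all tested genes. The counts were 1 and 1 without replicate 2. Without replicate 3 they were 2 and 15, against 8.5% higher and 7.36% lower of all tested genes. C1ra, a protease of the classical pathway, fell in all 7 fits with 298, 259.8 and 388 CPM in IL4KO_HFD, against 502, 488, 493 and 442 CPM in IL4KO_chow (log2 fold change -0.61, SE 0.12, FDR 0.00369). Oxidative phosphorylation and the TCA cycle gave 4 higher of 75, a share of 5.33% close to the 5.14% of all tested genes. Ern1, a sensor of unfolded proteins in the endoplasmic reticulum, was the single called gene of 30 in the unfolded protein list. That lower share of 3.33% is close to the 3.94% of all tested genes. Ern1 fell, with 19, 15.4 and 26 CPM in IL4KO_HFD, against 42.9, 39.4, 40.5 and 41.1 CPM in IL4KO_chow (log2 fold change -1.03, SE 0.17, FDR 0.00118).

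Lists with no called gene were gluconeogenesis and insulin signalling (25 tested), the circadian clock (22), acute phase proteins (23), the type I interferon response (24), the interferon gamma response (23), IL-4 signalling (13) and the cell cycle (28). By edgeR their counts at an unadjusted p below 0.05 were 8 for gluconeogenesis, 3 for the clock, 2 for acute phase, 5 for type I interferon, 2 for interferon gamma, 3 for IL-4 signalling and 4 for the cell cycle. Of all 12891 tested genes, 3267 had an unadjusted p below 0.05 by edgeR. DESeq2, which called 1402 genes in all, called 2 genes of gluconeogenesis, 1 acute phase gene, 2 type I interferon genes and 0 in the other 4 lists. Without replicate 3, gluconeogenesis gave 3 higher and 1 lower and acute phase proteins 0 higher and 3 lower. Also without replicate 3, type I interferon gave 2 higher and 2 lower, the cell cycle 2 higher, IL-4 signalling 1 higher, and the clock and interferon gamma 0. That fit called 8.5% of all tested genes higher and 7.36% lower. Without replicate 2 all 7 lists gave 0. A miss does not show that levels were alike. Pck1, which commits carbon to gluconeogenesis, had 4773, 2871 and 3334 CPM in IL4KO_HFD, against 3628, 3110.0, 2220.0 and 3337 CPM in IL4KO_chow (log2 fold change 0.25, FDR 0.657). The IL-4 receptor chain Il4ra had 35.9, 45.7 and 41.2 CPM in IL4KO_HFD, against 38.8, 34.3, 43.8 and 39 CPM in IL4KO_chow (log2 fold change 0.07, SE 0.11, FDR 0.723), and Stat6, which carries its signal, had a log2 fold change of -0.11 (FDR 0.515). Among chemokines and inflammatory cytokines 1 of 20 rose, a share of 5.0% close to the 5.14% of all tested genes. That gene was Il1rn, the interleukin-1 receptor antagonist (log2 fold change 1.55, SE 0.39, FDR 0.0160, and FDR 0.162 without HFD replicate 2). Ccl2 (FDR 0.614) and Il1b (FDR 0.832) did not pass. Mki67, a proliferation marker, was highest in replicate 2, with 2.06, 9.16 and 2.159 CPM in IL4KO_HFD, against 1.95, 2.53, 2.57 and 2.79 CPM in IL4KO_chow (FDR 0.320).

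**Figure D4:**
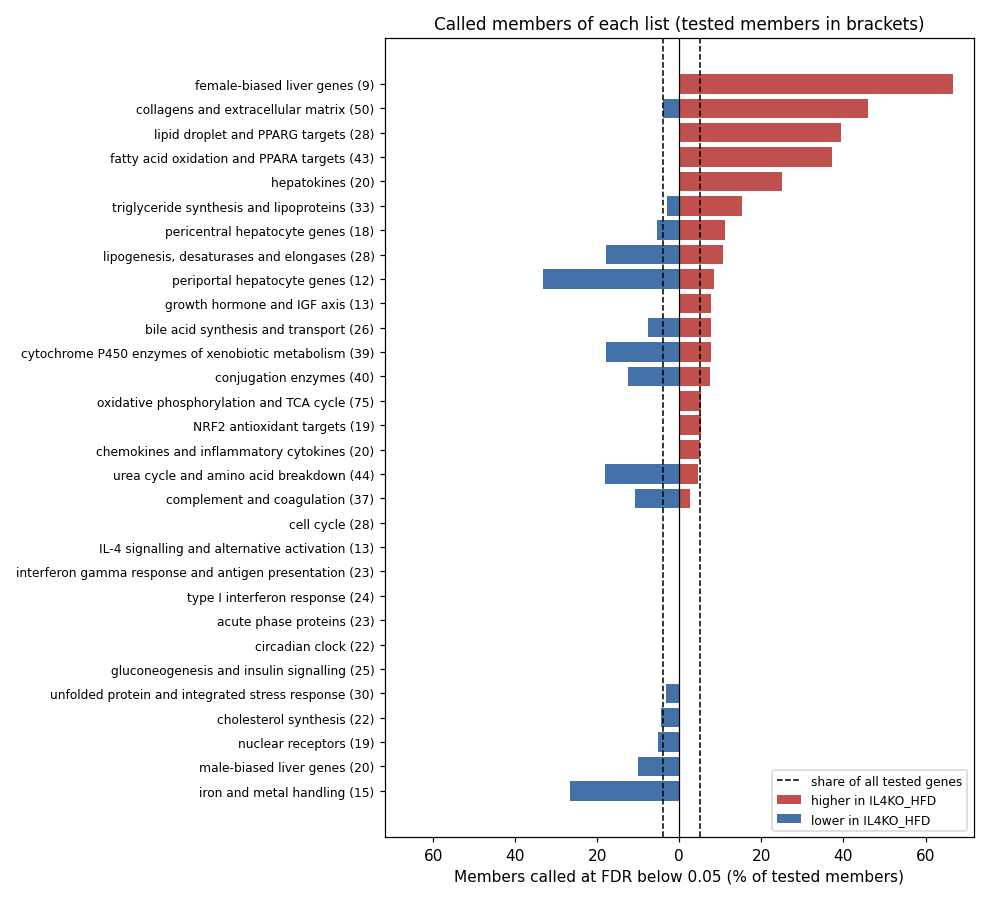
Share of the tested members of each list called at FDR below 0.05 (x axis, %), higher in IL4KO_HFD to the right (red) and lower to the left (blue), with tested members in brackets. Dashed lines mark the shares of all tested genes, 5.14% higher and 3.94% lower; female-biased, matrix, lipid droplet and fatty acid oxidation genes lie furthest to the right, and periportal and iron genes furthest to the left.

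The largest called changes with groups that did not overlap included genes outside the lists. Slc22a29, of the organic anion transporter family, had 6.29, 13.6 and 2.70 CPM in the IL4KO_HFD livers, against 0.185, 0.0903, 0.143 and 0.557 CPM in the IL4KO_chow livers (log2 fold change 5.04, SE 0.91, FDR 0.00278). Osbpl3, an oxysterol-binding protein gene, had 24.1, 48.6 and 15.8 CPM in IL4KO_HFD, against 3.90, 2.89, 2.15 and 2.65 CPM in IL4KO_chow (log2 fold change 3.32, SE 0.59, FDR 0.00288). Both were called in all 7 fits. Ly6d (log2 fold change 5.39, SE 1.08, FDR 0.00560), the serine protease gene Corin (log2 fold change 5.19, SE 1.07, FDR 0.00464), the recombination gene Rad51b (log2 fold change 4.29, SE 0.97, FDR 0.0108) and Pls1, an actin bundler (log2 fold change 3.69, SE 0.72, FDR 0.00377), were highest in replicate 2 and not called without it (FDR 0.130 for Ly6d, 0.0964 for Corin, 0.164 for Rad51b and 0.0659 for Pls1). H2-Q6 (log2 fold change 4.32, SE 1.02, FDR 0.0120; FDR 0.0763 without HFD replicate 2) belongs to a family of near-identical class I genes and is uncertain. Tiam2, a Rac exchange factor gene, had 5.83, 2.91 and 7.42 CPM in IL4KO_HFD, against 23.2, 20.2, 26.4 and 22.8 CPM in IL4KO_chow (log2 fold change -2.12, SE 0.37, FDR 0.00225). Myc, the growth regulator, had 3.89, 6.37 and 4.99 CPM in IL4KO_HFD, against 14.8, 22.3, 7.72 and 33.7 CPM in IL4KO_chow (log2 fold change -1.94, SE 0.59, FDR 0.0451; FDR up to 0.152 without HFD replicate 1, 2 or 3 or chow replicate 1, 2 or 4).

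Families of lysosomal genes were also examined, and they were picked after their values were seen. Of 18 tested Atp6v genes, which encode the proton pump that acidifies lysosomes, 7 were higher, against 5.14% of all tested genes, and 0 lower. The higher count was 3 without replicate 2, and 8 without replicate 3. Atp6v1e1 had 108, 110.1 and 92.3 CPM in the IL4KO_HFD livers, against 81.9, 79.7, 71.6 and 74.1 CPM in the IL4KO_chow livers (log2 fold change 0.43, FDR 0.000896). Ctsa, a lysosomal carboxypeptidase gene, had 204, 227 and 191 CPM in IL4KO_HFD, against 146, 142, 149.9 and 142 CPM in IL4KO_chow (log2 fold change 0.52, FDR 0.000535), 1 of 3 cathepsin genes that rose out of 14. The summed level of the Atp6v genes was 885.8, 917.8 and 789.8 CPM in IL4KO_HFD, against 735.9 to 748.3 CPM in IL4KO_chow, with no overlap.

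Promoters of 4 called lysosomal genes are shown because they hold the E-box hexamer CACGTG, read on both strands (it is its own reverse complement). Windows run from 250 bases before to 50 after the start of transcription (RefSeq, GRCm38.p6), and capitals mark the hexamer. Of the 34 genes of the Atp6v, cathepsin and hexosaminidase families, 22 matched a window. The hexamer lay in 8 of their 26 windows (30.8%), against 7.15% of all windows and 9.76% of those of tested genes. Of 10 called genes with a window, 5 held it, 4 of them of the Atp6v family. Atp6v0e also holds it and is not printed, and the other 5 called genes with a window do not.
Ctsa (chr2:164833523-164833822, plus strand): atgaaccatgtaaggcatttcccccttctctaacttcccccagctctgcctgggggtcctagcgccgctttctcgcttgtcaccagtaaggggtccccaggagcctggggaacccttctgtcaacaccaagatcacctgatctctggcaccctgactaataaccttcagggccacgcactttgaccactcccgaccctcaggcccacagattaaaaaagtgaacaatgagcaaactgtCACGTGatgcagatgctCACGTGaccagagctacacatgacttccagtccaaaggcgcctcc
Atp6v0d1 (chr8:105566015-105566314, minus strand): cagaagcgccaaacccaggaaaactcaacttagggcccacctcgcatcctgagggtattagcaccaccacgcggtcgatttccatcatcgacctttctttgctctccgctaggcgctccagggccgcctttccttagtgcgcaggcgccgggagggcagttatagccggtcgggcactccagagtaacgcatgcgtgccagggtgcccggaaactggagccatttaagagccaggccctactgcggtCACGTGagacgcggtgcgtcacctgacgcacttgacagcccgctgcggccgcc
Atp6v0b (chr4:117887280-117887579, minus strand): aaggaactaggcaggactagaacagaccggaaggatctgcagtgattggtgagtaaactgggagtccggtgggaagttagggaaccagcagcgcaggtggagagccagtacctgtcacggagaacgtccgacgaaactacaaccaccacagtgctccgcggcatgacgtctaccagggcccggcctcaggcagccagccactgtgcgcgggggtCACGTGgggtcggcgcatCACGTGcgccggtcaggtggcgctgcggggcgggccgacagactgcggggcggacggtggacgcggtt
Atp6v1a (chr16:44139210-44139509, minus strand): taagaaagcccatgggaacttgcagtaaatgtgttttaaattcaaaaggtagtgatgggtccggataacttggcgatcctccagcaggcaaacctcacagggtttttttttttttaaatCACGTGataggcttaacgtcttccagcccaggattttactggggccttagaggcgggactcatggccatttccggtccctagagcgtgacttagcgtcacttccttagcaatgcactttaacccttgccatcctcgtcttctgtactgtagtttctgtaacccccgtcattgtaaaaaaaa
In Ctsa and Atp6v0b the hexamer occurs as a pair, in Atp6v0d1 once at the start site and in Atp6v1a once further upstream. Atp6v0d1 (log2 fold change 0.28, FDR 0.0117), Atp6v0b (0.27, FDR 0.0476) and Atp6v1a (0.33, FDR 0.0285) were not called without replicate 2 (FDR 0.0543, 0.234 and 0.321 in that order), while Ctsa held in all 7 fits. A match is a description of letters, not a binding site.

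The other motifs searched gave these shares. The hexamer CACGTG was in 6 of 26 clock promoters (23.1%) and the D-box TTANGTAA in 1 of 26 (3.85%, against 2.32% of all), with no clock gene called. The antioxidant element TGACNNNGC was in 7 of 21 NRF2 target promoters (33.3%, against 12.4%), and the interferon element, GAAA repeated with any 2 bases between, in 9 of 18 type I interferon promoters, against 3.44% of all, with no interferon gene called. The direct repeat of AGGNCA with any base between the repeats, which PPARα recognises, was in 0 of 37 fatty acid oxidation promoters and in 1 of 36 lipid droplet promoters, against 0.381% of all, and that single promoter belongs to Fabp1, which was not called (FDR 0.325). Each was read on both strands.

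The diet effect in the knockout was next set beside that in wild-type mice, which asks whether the missing Il4 changed the response. WT_HFD against WT_chow gave 2511 called genes (19.5% of tested genes), with 4 libraries in each group. Of the 1170 genes called in IL4KO, 631 were called in the same direction in WT, which is 53.9% of the IL4KO calls and 25.1% of the WT calls. A further 3 genes, Sh3bp5, Slc2a4 and Zmiz1, were called in opposite directions. Of the 1170, 1092 (93.3%) had the same sign in WT. Of the 201 genes called in all leave-one-out fits, 150 (74.6%) were called in WT in the same direction. Over all 12891 tested genes the log2 fold changes in IL4KO and WT had a Pearson r of 0.619, a description across genes that are not independent.

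Side by side, several leading genes had the same sign in both genotypes. Pgm3 had a log2 fold change of 1.26 in IL4KO and 0.82 in WT, Fads2 1.09 in IL4KO and 1.21 in WT, Cyp2c29 -2.01 in IL4KO and -2.21 in WT, and Srgap3 -4.19 in IL4KO and -3.22 in WT. Col1a1 had 3.29 in IL4KO and 2.60 in WT, and Cidec 3.60 in IL4KO and 3.76 in WT. Matrix genes gave 23 higher and 2 lower of 50 in IL4KO and 20 higher and 1 lower in WT, and fatty acid oxidation genes gave 16 of 43 higher in IL4KO and 20 of 43 in WT, with 0 lower in either. None of these genes was called in the test of the difference, which does not show that the effects were equal. Of all tested genes, the diet raised 9.63% and lowered 9.84% in WT.

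That test, the diet effect in IL4KO minus that in WT, called 6 genes (0.0465%), and 1379 had an unadjusted p below 0.05. Sh3bp5 was the only 1 of the 1170 IL4KO calls among them, and none of the 536 genes called in IL4KO and not in WT was called in the difference.

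Plekhg5, a guanine nucleotide exchange factor gene, had 7.20, 9.39 and 8.37 CPM in IL4KO_HFD, against 8.90, 10.6, 10.9 and 10.4 CPM in IL4KO_chow, and 6.88, 6.24, 6.42 and 6.98 CPM in WT_HFD, against 2.68, 3.91, 3.53 and 3.57 CPM in WT_chow (difference -1.24 on the log2 scale, SE 0.19, FDR 0.00634). Gpam, the mitochondrial acyltransferase that starts glycerolipid synthesis, had 134, 133 and 128 CPM in IL4KO_HFD, against 161, 142, 140.3 and 178 CPM in IL4KO_chow, and 278, 191, 284 and 296 CPM in WT_HFD, against 134, 138, 127 and 107 CPM in WT_chow (difference -1.29, SE 0.21, FDR 0.0147). Both genes rose in WT (log2 fold change 0.95 for Plekhg5 and 1.053 for Gpam), while in IL4KO neither passed (FDR 0.175 for Plekhg5 and 0.359 for Gpam). The level of Plekhg5 in IL4KO_chow was above every WT liver. Also called were Abtb2 (difference 1.63, FDR 0.0260), Sh3bp5 (-0.51, FDR 0.0147) and Pitpnm2 (-0.71, FDR 0.0304). Plekhg5 was called in all 25 distinct alternative fits of the difference, Gpam in 21, Sh3bp5 in 18, Abtb2 in 14 and Pitpnm2 in 12.

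**Figure D5:**
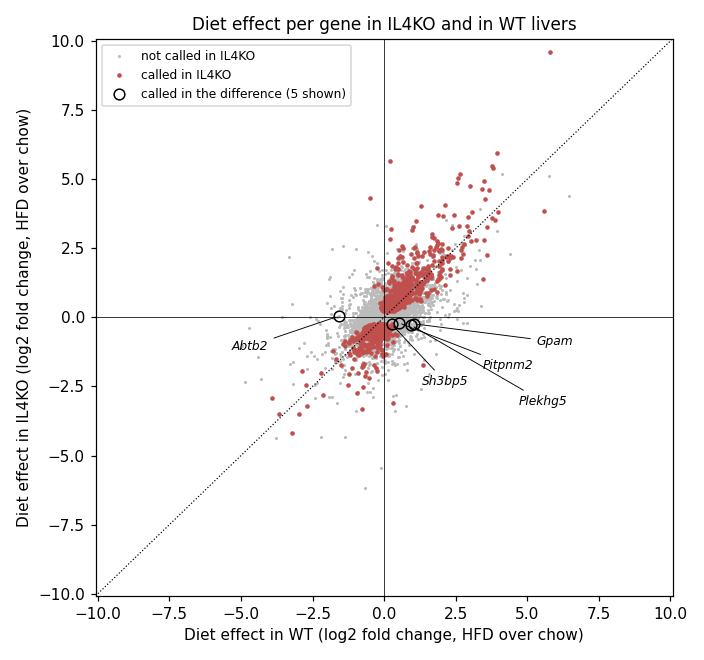
Diet effect per gene (log2 fold change, HFD over chow) in IL4KO (y axis) and in WT (x axis) for 12891 tested genes, with genes called in IL4KO in red and 5 of the genes called in the difference circled. Most red points lie in the same quadrant in both genotypes (1092 of 1170), and the dotted line marks equal effects.

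Several genes of lipid and clock control passed in 1 genotype only, and their differences did not pass. Srebf1 had a log2 fold change of -0.72 in IL4KO and 0.92 in WT (difference FDR 0.107), and Acly -0.98 in IL4KO and 0.12 in WT (FDR 0.107). The clock output gene Dbp had 0.21 in IL4KO and 2.57 in WT (FDR 0.179), and Per3 0.26 in IL4KO and 2.51 in WT (FDR 0.153). Of 22 clock genes, 0 were called in IL4KO and 16 in WT. The hour at which each liver was taken is not given in the labels, and its part in the clock values was not tested. Fgf21 had a log2 fold change of 3.15 in IL4KO and 0.98 in WT (difference FDR 0.271), a gap that did not pass either.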

How the data were processed

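Mouse livers of 3 genotypes (WT, without IL-4, and without both IL-4 and IL-10), each on chow or high-fat diet, were profiled in 23 libraries by stranded mRNA sequencing, per the labels' protocols. Per the submitters' processing notes, bcl2fastq 2.16, TopHat2 2.0.8 and Partek were used with build mm10, while the sources used here do not give the annotation, counting or strand settings. Estimated counts per gene, which need not be whole, were deposited by the authors together with a table of log2 values, which served as an alternative.

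The estimated counts were rounded. Genes were filtered by group (filterByExpr), scaled by TMM and fitted with edgeR 4.0.16 (robust quasi-likelihood, R 4.3.3) in 1 model of 6 group means over 23 libraries. The double knockouts entered the gene filter, the scaling and the estimate of the spread, but none of the comparisons. Of 24440 genes, 12891 were tested, with Benjamini-Hochberg adjustment over all of them and calls at FDR below 0.05. Standard errors are the log2 fold change divided by the root of F. CPM values use TMM-scaled library sizes. Totals ran from 7114459 to 30205078 counts per library. limma 3.58.1 and DESeq2 1.42.0 gave alternatives, and the procedure was tested on simulated data.

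Named genes were key list members and the leading called members, the largest non-overlapping changes, the genes with the smallest worst FDR over the 7 leave-one-out fits, and the genes called in the difference. Genes outside these rules, such as those of the lysosomal families, were chosen after their values were seen. The gene lists and the comparison were chosen with earlier results of these data known. Promoter sequences come from RefSeq (GRCm38.p6). Some genes of the lists and comparisons are not reported here.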

Additional observations from a re-analysis of the deposited data

Results flagged for a closer look

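A single IL4KO_chow liver stood apart for several genes and list sums, judged by its gap to the nearest of the other chow livers as a share of the group's range (Dixon's test at its 95% critical value). Of 263 named genes and 43 list sums, chance flags about 1 in 20. Replicate 4 was high for Cidec (0.886), Fitm2 (0.858), Hao2 (1.0) and Bcl6 (0.919). Replicate 3 stood apart for Cyp39a1, where it was low (0.881), and for Nqo1 (0.958), Saa1 (0.882), Lcn2 (0.903), S100a8 (0.956) and Pitpnm2 (0.92). Replicate 1 stood apart for Isg15 (0.874), Il10 (1.0), Clec4f (0.885) and Nkg7, where it was low (0.922), and replicate 2 for Timp1 (1.0) and Reln (0.915). Hao2, Il10 and Timp1 were at 0 in the other 3 chow livers, so their share of 1.0 follows from the zeros and says nothing of spread. Among list sums, replicate 4 stood apart for bile acid genes (0.869) and clock genes (0.85), replicate 3 for hepatokines (0.856) and neutrophil markers (0.95), and replicate 1 for erythroid markers (0.848).

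Neutrophil markers summed to 20.59 CPM in chow replicate 3 and to 1.95 to 2.88 CPM in the other chow livers, and erythroid markers to 620.8 CPM in chow replicate 1. These livers remained in every comparison unless stated.

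For 5 genes the diet effect in IL4KO differed from that in WT by the interaction term of edgeR's model, with differences on the log2 scale of -1.24 for Plekhg5, -1.29 for Gpam, -0.51 for Sh3bp5, 1.63 for Abtb2 and -0.71 for Pitpnm2.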

How the results depend on the processing

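The number of called genes in IL4KO ran from 236 to 2045 when 1 library was left out, the lowest without HFD replicate 2 and the highest without HFD replicate 3. The range was 1750 to 2843 in WT and 2 to 12 for the difference between genotypes. The knockout libraries alone gave 499 calls against 1170, while the wild-type libraries alone gave 2636 against 2511. The reason for the drop in the knockout was not tested. Other settings gave 833 (limma-voom) to 1402 (DESeq2), and limma-voom put the share of higher calls at 48.5%. For the difference, DESeq2 called 68 genes, the deposited log2 values 14, and the 4 compared groups alone, which is the fit without double knockout libraries, 20, against 6; the cause was not tested. Among the named genes, 86 calls were lost without HFD replicate 2 and 68 with the compared groups alone, and no called named gene reversed under the 26 alternatives. Without HFD replicate 2, matrix genes gave 1 higher and 2 lower, against 23 and 2, and the medians of cholesterol synthesis (0.13, against -0.11) and pericentral genes (0.07, against -0.04) changed sign. No paired analysis was possible because the labels give no replicate numbers. Totals of 7114459 to 11179746 counts per knockout library limit the precision of genes with few counts, such as Gpnmb, Trem2 and Corin.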
